A study of Mus musculus with 384 samples.

Results

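The transforming growth factor beta (TGF-beta) genes Tgfb1, Tgfb2, Tgfb3, Tgfbr1, Tgfbr2, Ltbp1, Thbs1, Tgfbi and Ctgf were followed through single sorted cells of mouse kidney. These 9 genes were taken by name from the deposited count tables, and each was found once among the 40594 genes that both tables list. The wells held cells of mice aged 8 weeks, sorted from kidneys after an enzyme digest at body temperature, 1 cell to a well. Wells of the CD45+ gate were sorted as positive for both PDGFRB and CD45, and wells of the CD45- gate as positive for PDGFRB and negative for CD45. Each gate filled 1 plate of 96 wells in each of 2 batches, which gave 4 plates and 384 wells. All groups share the letters UUO in their well names, an abbreviation left unexplained there. Strain, sex, genotype and the number of animals behind a plate are not given in the sources used here. The title of the series asks how far monocytes contribute to myofibroblasts in kidney fibrosis, and the comparison of gates shows which of these PDGFRB+ cells held TGF-beta transcripts.

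TGF-beta is the best known signal for scar formation in the kidney. Cells secrete its ligands as latent complexes that are bound to carrier proteins such as Ltbp1 and are stored in the matrix. Once freed, a ligand binds the type II receptor, which recruits and activates the type I receptor, and SMAD proteins then carry the signal to genes that encode matrix and adhesion proteins.

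A well was kept with at least 10000 reads on genes and 500 genes with a read, which left 92 and 90 CD45+ wells in batches 1 and 2 and 93 CD45- wells in each batch. Kept wells had a median of 225559 and 284092 reads in the CD45+ plates, against 255990 and 288818 reads in the CD45- plates. Levels are given as CPM, reads scaled to a common total, either in single wells or for the reads summed over a plate or a class of wells. All 9 genes together made up 0.0611% of the reads of kept wells. The gates carried the markers of their sort with 1 exception. At least 3 of 8 leukocyte markers reached 100 CPM in 91 of 92 and 90 of 90 CD45+ wells, against 3 and 8 CD45- wells. Ptprc, which encodes CD45, had 469 and 303 CPM in the CD45+ plates, against 0.136 and 0.976 CPM in the CD45- plates. The exception was Pdgfrb, with 0.113 and 5.73 CPM in the CD45+ plates, against 294 and 220 CPM in the CD45- plates, although both gates were sorted on the PDGFRB protein. In the CD45+ plate of batch 2, 151 of its 163 reads came from replicate 68, and the level without that well was 0.431 CPM. A CD45+ well of batch 2, replicate 18, stood apart. It held 1246070 reads, the most of all wells, 1 read of Ptprc, 6 of the 8 leukocyte markers at 100 CPM or more and 93.6% of the Col1a1 reads of its plate.

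The CD45- wells were divided by their own transcripts. Endothelial wells had at least 3 of 10 endothelial markers at 100 CPM or more, and collagen-rich wells had at least 3000 CPM of Col1a1, Col1a2 and Col3a1 together. There were 23 and 27 endothelial wells, 48 and 38 collagen-rich wells, and 13 and 18 other wells in batches 1 and 2. Another 9 and 10 wells passed both rules and were put in neither class. They were shallow, with a median of 17286 and 16550.5 reads. The classes are ranges rather than cell types. In batches 1 and 2, 9 and 1 wells lay within 1.5 times of the collagen limit, 9 and 7 wells had exactly 3 endothelial markers, and 9 and 5 wells had 2. None of the 9 genes entered either rule. Col1a1, a gene of the collagen rule and so set apart by it, was read at 237 and 226 CPM in endothelial wells, against 7775 and 9936 CPM in collagen-rich wells.

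The labels name no animal, so each plate counts as 1 sample and no p-value was computed. Calls of higher in a gate or class needed a level, with 1 CPM added, at least 4 times that of the other group within each of the batches. Intervals and bounds cover counting error only. In summed wells, fewer cells that hold a transcript and less of it per cell cannot be told apart, so the number of wells at 100 CPM or more is given beside each level. In a well of 10000 reads, 1 read already comes to 100 CPM. Counts are therefore also given for the 154 CD45+ and 161 CD45- wells of at least 50000 reads.

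Of the 9 genes, 0 were called higher in the CD45+ gate and 3 in the CD45- gate, namely Ctgf, Tgfb2 and Ltbp1. Over all 12882 genes tested, 4.33% were called higher in the CD45+ gate and 12.9% in the CD45- gate. With plates scaled by TMM in place of total reads, 1 of the 9 genes was called higher in the CD45+ gate and 3 in the CD45- gate. Under that scaling the shares over all genes tested were 5.26% and 10.4%. The median log2 ratio of the 9 genes, CD45+ over CD45-, was -1.63 in batch 1 and -2.57 in batch 2, beside -0.39 and -0.56 over all genes. Tgfbi and Tgfbr1 had higher levels in the CD45+ plates of both batches without reaching 4-fold in each.

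**Figure D1:**
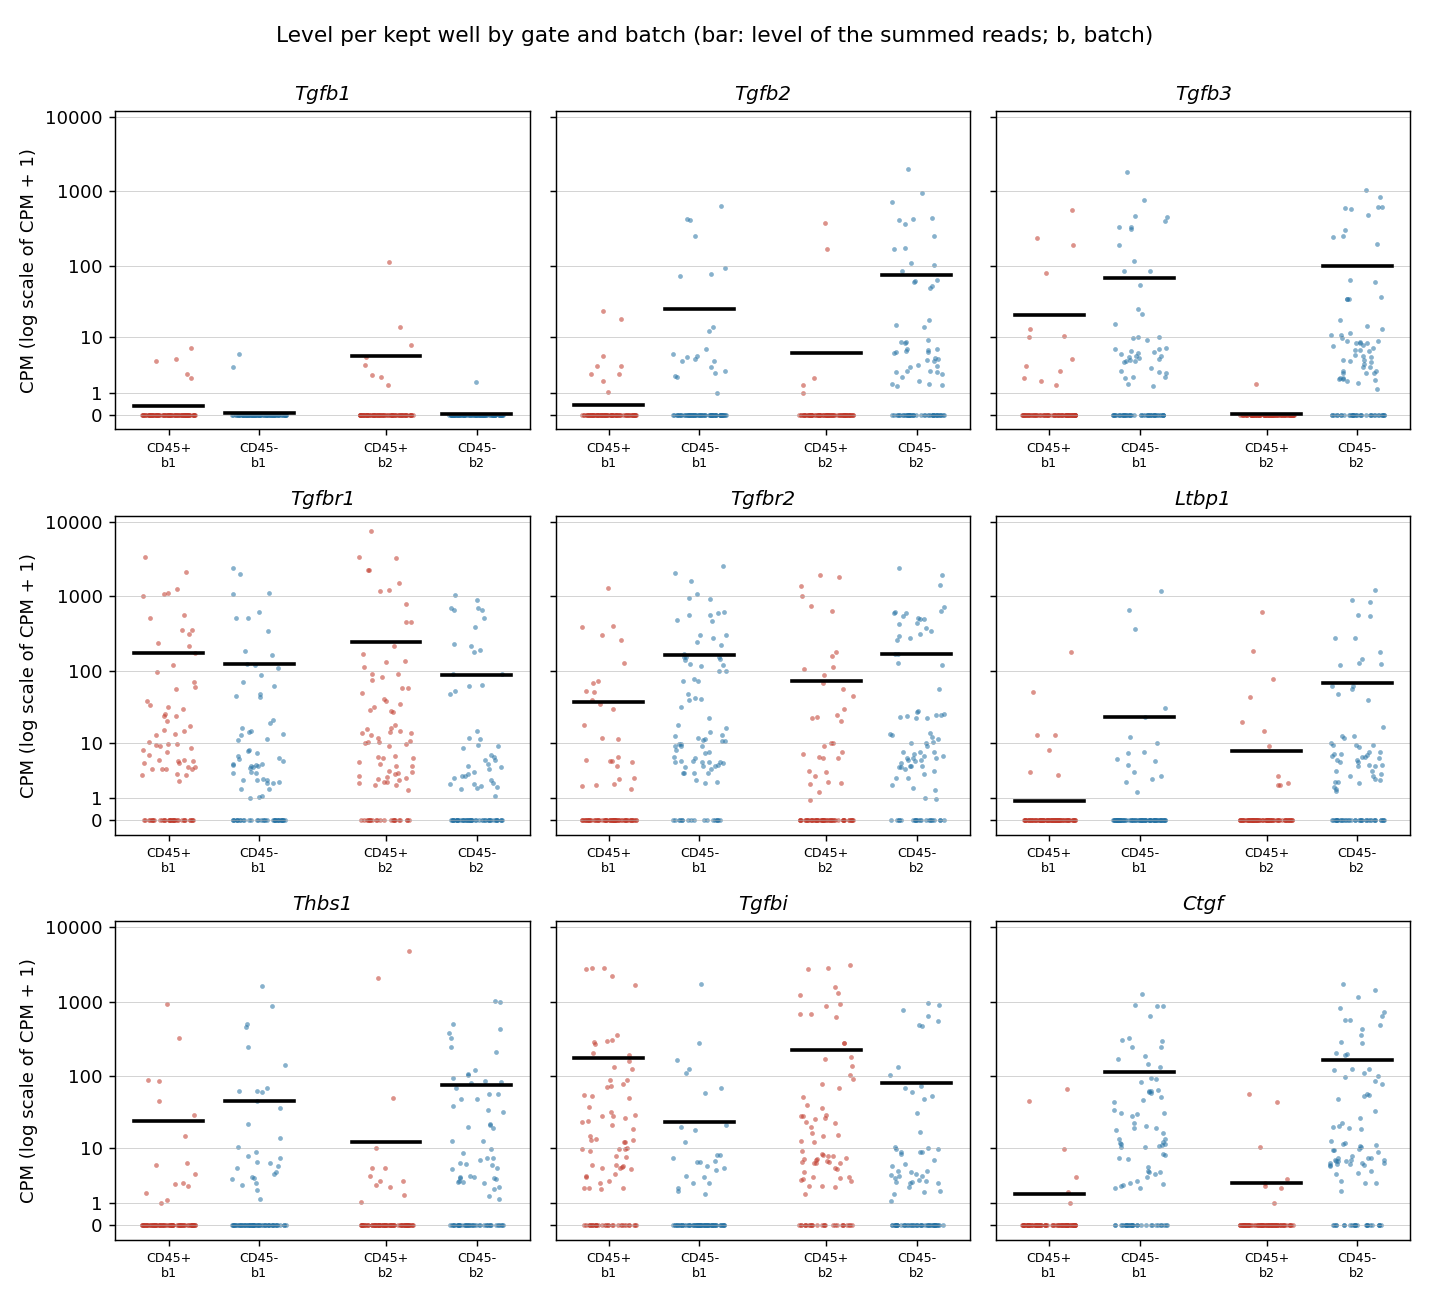
Level of each gene in every kept well, in CPM on a logarithmic scale of CPM + 1, with CD45+ wells left of CD45- wells within each batch (b1, b2). Points are wells and bars are the level of the summed reads. Ctgf reached 100 CPM in 0 of 182 CD45+ wells and in 35 of 186 CD45- wells, while Tgfbi reached it in 32 and 14.

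Promoters are shown for 3 of the members for which RefSeq entries were at hand. Tgfb2 and Ltbp1 were called higher in the CD45- gate, and Tgfbi leaned towards the CD45+ gate. Each run covers 250 bases before and 50 bases from the annotated start, on the strand of the gene, from RefSeq on GRCm38.p6. Capitals mark the SMAD-binding letters CAGAC or, on the opposite strand, GTCTG. The Tgfb2 run lies at chr1:186705940-186706239 on the minus strand, the Ltbp1 run, the first of its 2 starts, at chr17:75005279-75005578 on the plus strand, and the Tgfbi run at chr13:56609336-56609635 on the plus strand.
Tgfb2: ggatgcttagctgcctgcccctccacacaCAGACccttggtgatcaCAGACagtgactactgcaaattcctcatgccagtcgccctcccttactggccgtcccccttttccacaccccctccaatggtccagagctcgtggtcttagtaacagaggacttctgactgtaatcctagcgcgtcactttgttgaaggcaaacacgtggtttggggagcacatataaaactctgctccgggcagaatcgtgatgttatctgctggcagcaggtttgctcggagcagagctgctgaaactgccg
Ltbp1: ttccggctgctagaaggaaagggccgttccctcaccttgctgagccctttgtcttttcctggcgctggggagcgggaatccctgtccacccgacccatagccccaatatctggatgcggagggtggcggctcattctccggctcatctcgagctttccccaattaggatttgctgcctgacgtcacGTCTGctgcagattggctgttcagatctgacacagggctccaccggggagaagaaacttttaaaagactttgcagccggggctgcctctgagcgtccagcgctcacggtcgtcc
Tgfbi: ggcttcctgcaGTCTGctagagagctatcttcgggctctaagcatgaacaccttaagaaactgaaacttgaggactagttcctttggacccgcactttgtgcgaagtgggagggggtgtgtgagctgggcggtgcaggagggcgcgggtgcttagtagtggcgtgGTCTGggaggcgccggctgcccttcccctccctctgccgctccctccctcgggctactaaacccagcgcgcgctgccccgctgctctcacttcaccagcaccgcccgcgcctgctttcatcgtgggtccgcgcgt
CAGAC begins 221 and 204 bases before the start of Tgfb2. On the opposite strand it lies 64 bases before the start of Ltbp1, and 239 and 85 bases before that of Tgfbi. The letters are common, since 49.6% of 32851 promoters of this length hold them on either strand. The AP-1 letters TGANTCA, held by 7.81% of these promoters on either strand, are in none of the 3 runs. Of the 9 genes, 6 had such an entry. Among the entries not printed, Tgfb1 and the first start of Tgfbr1 held 0 of the CAGAC letters on either strand. Tgfbr2 and the second starts of Tgfbr1 and Ltbp1 held them.

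The ligands differed from each other in where they were read. Tgfb1, the isoform most studied in fibrosis, was almost unread, with 157 reads in all 368 kept wells. It was read at 0.302 and 5.13 CPM in the CD45+ plates, against 0.0682 and 0.0315 CPM in the CD45- plates. In the CD45+ plate of batch 2, 139 of its 146 reads came from replicate 18, at 112 CPM in that well. Without that well the log2 ratio of batch 2 was 0.29 in place of 2.57, beside 0.29 in batch 1. The remaining wells held 18 reads of Tgfb1, so its order between gates rests on a handful of reads and was not called. In the CD45- gate 0 of 186 wells reached 100 CPM, which allows a share of up to 1.61%.

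Tgfb2 was called higher in the CD45- gate. Its level was 0.340 and 5.69 CPM in the CD45+ plates, against 25.4 and 74.5 CPM in the CD45- plates, with log2 ratios of -4.30 and -3.50. The lowest well was at 0 in every plate, and so was the median well apart from 1.63 CPM in the CD45- plate of batch 2. The highest reached 24.1 and 375 CPM among CD45+ wells, against 627 and 1997 CPM among CD45- wells. A level of 100 CPM was passed by 2 of 182 CD45+ wells and 16 of 186 CD45- wells, or 1 and 15 with shallower wells than 50000 reads left out. Replicate 27 held 155 of the 162 reads of the CD45+ plate of batch 2, and the log2 ratio of that batch was -5.92 without it. The ratio of batch 1 was -3.68 with CD45- replicate 21 left out. The wells of the gates overlapped near 0, where most wells of both gates lie, and separated only in their upper ends.

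Tgfb3 was read at 21.2 and 0.0351 CPM in the CD45+ plates, against 67.8 and 99.9 CPM in the CD45- plates. Its log2 ratios of -1.63 and -6.61 pointed the same way, yet batch 1 missed 4-fold. There, 462 of the 561 CD45+ reads came from replicate 35, and without that well the ratio was -3.82 and the gene would be called higher in the CD45- gate. Tgfb3 reached 100 CPM in 3 CD45+ wells, all of batch 1, against 21 CD45- wells, or 2 and 16 of at least 50000 reads. Its highest wells held 556 CPM in the CD45+ gate and 1820 CPM in the CD45- gate. No well of either gate held both Tgfb2 and Tgfb3 at 100 CPM or more, with 16 and 21 CD45- wells holding them singly. With so few wells of each, this absence does not set the genes apart. With wells thinned at random to 50000 reads, both had a read in 2 of 79 and 6 of 82 CD45- wells. Tgfb2 then had a read in 7 and 25 of these wells, and Tgfb3 in 16 and 22. A reference annotation, not known to be that of the counts, places antisense genes over parts of Tgfb2, Tgfb3 and Thbs1. The sources used here do not say whether counting used strand. The partners may therefore have altered these counts in either direction, which was not tested.

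Neither receptor was called by gate. Tgfbr1, the type I receptor kinase, was read at 173 and 245 CPM in the CD45+ plates, against 122 and 88.3 CPM in the CD45- plates, with log2 ratios of 0.50 and 1.46. It reached 100 CPM in 31 of 182 CD45+ wells and 25 of 186 CD45- wells. Among wells of at least 50000 reads these counts were 20 of 154 and 20 of 161. The highest wells held 7665 CPM in the CD45+ gate, in batch 2, and 2396 CPM in the CD45- gate, in batch 1. Neither gate was separated from the other by its wells.

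Tgfbr2, the type II receptor that binds the ligand first, leaned the other way. It was read at 37.2 and 71.7 CPM in the CD45+ plates, against 165 and 166 CPM in the CD45- plates, with log2 ratios of -2.12 and -1.20, of which only batch 1 passed 4-fold. At 100 CPM or more it was found in 16 CD45+ wells and 50 CD45- wells, and among wells of at least 50000 reads in 11 of 154 and 39 of 161. Its CD45- level was nearly the same in both batches, with a distance of 0.00934 on the log2 scale, beside a median of 0.897 over all genes in that gate. After thinning of every well to 50000 reads, Tgfbr2 had a read in 17.1% and 15.4% of CD45+ wells, with 95% intervals of 9.43% to 27.5% and 8.21% to 25.3%. In CD45- wells the shares were 51.9% and 41.5%, with intervals of 40.4% to 63.3% and 30.7% to 52.9%. The wells of a plate are not replicates of a gate, so these intervals describe each plate alone.

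Transcripts typical of the other gate gave the background for such shares. After the same thinning, Col1a1 had a read in 38.2% and 70.5% of CD45+ wells, and Lyz2, a lysozyme of myeloid cells, in 22.8% and 42.7% of CD45- wells. Ptprc itself had a read in 0% and 3.66% of CD45- wells. The median depth of the thinned wells before thinning was 287380 and 302747 reads in the CD45+ plates and 302826 and 348004 reads in the CD45- plates. The share of CD45- wells with a Tgfbi read, 12.7% and 23.2%, lay under that of Lyz2. The genes are not alike in abundance, since Lyz2 had a read in 98.7% and 100% of CD45+ wells and Tgfbi in 40.8% and 47.4%. Low shares are not read here as expression. At 100 CPM or more, Tgfbi was found in 12 of 161 CD45- wells of at least 50000 reads.

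Among the genes of latency and activation, Ltbp1, a carrier that tethers latent TGF-beta to the matrix, was called higher in the CD45- gate. Its level was 0.831 and 7.34 CPM in the CD45+ plates, against 23.5 and 67.6 CPM in the CD45- plates, with log2 ratios of -3.74 and -3.04. It reached 100 CPM in 3 CD45+ wells and 15 CD45- wells, or 2 and 12 of at least 50000 reads. Like Tgfb2 it differed between the CD45- plates, with 3 wells at 100 CPM in batch 1 and 12 in batch 2, where Tgfb2 had 4 and 12. Without CD45- replicate 61 or 58, the ratio of batch 1 was -3.14 or -2.99, and without CD45+ replicate 66 or 68 that of batch 2 was -3.63 or -4.02.

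Thbs1, which encodes thrombospondin-1, a glycoprotein of matrix and platelets that can free latent TGF-beta, was not called. It was read at 23.98 and 12.1 CPM in the CD45+ plates, against 44.8 and 76.3 CPM in the CD45- plates, with log2 ratios of -0.87 and -2.57. Its CD45+ reads sat in few wells, with 4 CD45+ wells at 100 CPM or more, against 17 CD45- wells, or 3 and 15 of at least 50000 reads. In batch 1, replicate 82 held 434 of 635 reads, and without it the ratio was -2.39 and Thbs1 would be called higher in the CD45- gate. In batch 2 the highest CD45+ well, replicate 46, reached 4797 CPM with only 34816 reads in all. Without it or replicate 90, the ratio of that batch was -3.43 or -3.28. Without CD45- replicate 62 the ratio of batch 1 was -0.16. Of the 6 platelet markers, 3 reached 1 CPM in each CD45+ plate and 4 in each CD45- plate. Their sum was 2599 and 2487 CPM in the CD45+ plates, against 232 and 156 CPM in the CD45- plates, while Gp6 was at 0 in both CD45+ plates. The part of platelet transcripts in the Thbs1 and Tgfb1 levels was not tested.

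The targets Tgfbi and Ctgf had ratios of opposite sign by gate. Tgfbi, a secreted adhesion protein named for its induction by TGF-beta, was read at 175 and 224 CPM in the CD45+ plates, against 23.6 and 80.3 CPM in the CD45- plates. Its log2 ratios were 2.84 and 1.47, so that batch 2 missed 4-fold. At 100 CPM or more it was found in 32 of 182 CD45+ wells and 14 of 186 CD45- wells, and among wells of at least 50000 reads in 22 of 154 and 12 of 161. The median well held 6.34 and 6.39 CPM in the CD45+ gate and 0 CPM in both CD45- plates. In batch 1, 433 of the 692 CD45- reads came from replicate 58, without which the ratio was 4.15. With plates scaled by TMM or by the median of ratios, in place of total reads, Tgfbi was called higher in the CD45+ gate.

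Ctgf, a matricellular protein and a widely used readout of TGF-beta and of YAP signalling, showed the widest gap that held in both batches. Its level was 1.62 and 2.74 CPM in the CD45+ plates, against 113 and 163 CPM in the CD45- plates, with log2 ratios of -5.45 and -5.46. The highest wells held 66.3 and 56.2 CPM in the CD45+ gate, against 1281 and 1714 CPM in the CD45- gate. It reached 100 CPM in 0 of 182 CD45+ wells, which allows a share of up to 1.65%, and in 35 of 186 CD45- wells, 18.8% with an exact interval of 13.5% to 25.2%. Among wells of at least 50000 reads, 0 CD45+ wells and 30 CD45- wells reached that level. In the CD45+ plate of batch 2, 70 of 78 reads came from replicate 18, and without it the ratio was -6.99.

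**Figure D2:**
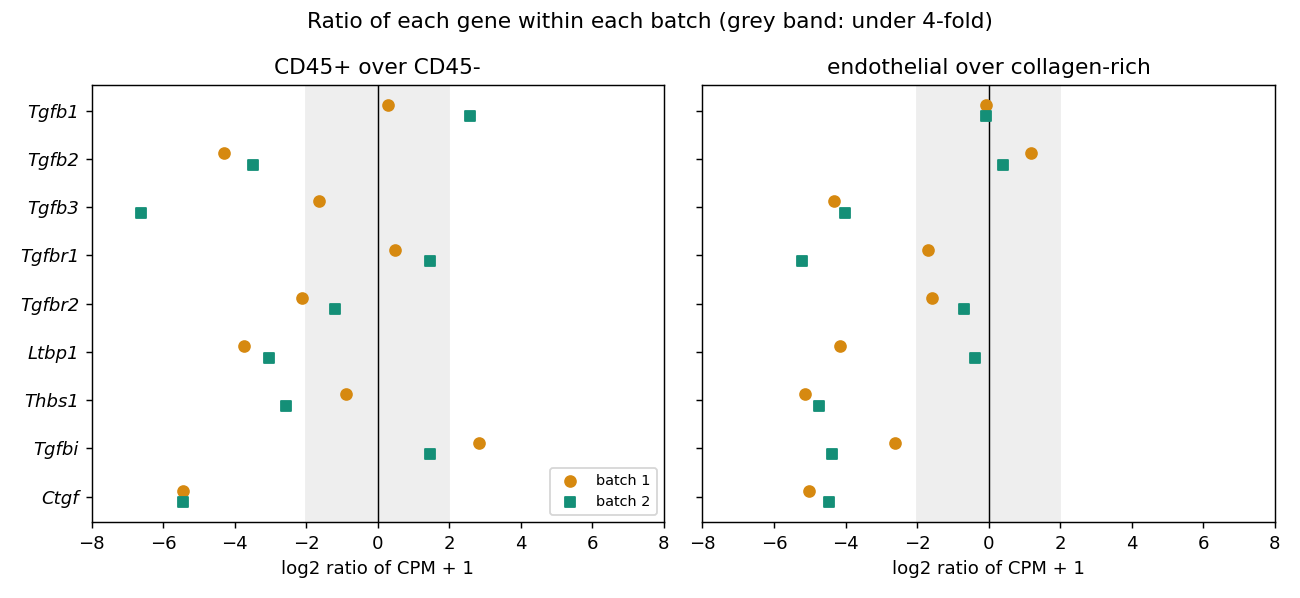
Log2 ratio of CPM + 1 for each gene within batch 1 (circles) and batch 2 (squares), CD45+ over CD45- in the left panel and endothelial over collagen-rich CD45- wells in the right panel. The grey band marks ratios under 4-fold. By gate, Ctgf lay at -5.45 and -5.46 and Tgfbi at 2.84 and 1.47; Tgfb1 in the right panel was too low to be tested.

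Immediate early genes, which stress and tissue digestion can induce, had higher levels in the CD45+ plates. Of the 4 followed here, Fos had 1615 and 3312 CPM in the CD45+ plates, against 566 and 788 CPM in the CD45- plates, and Jun had 567 and 554 CPM, against 229 and 324 CPM. Egr1 had 400 and 435 CPM in the CD45+ plates, against 73.7 and 223 CPM in the CD45- plates, and Atf3 had 283 and 639 CPM, against 2.28 and 73.2 CPM. Red cell markers went the other way, with a sum of 23.1 and 20.9 CPM in the CD45+ plates, against 13893 and 2918 CPM in the CD45- plates. Their part in the levels of the 9 genes was not tested. The calls were also made without the CD45+ wells that passed the endothelial or collagen rule and the CD45- wells that passed the leukocyte rule. Ctgf, Tgfb2 and Ltbp1 were then still called higher in the CD45- gate, and Thbs1 was added. Over all genes tested, 16.9% were called higher in that gate.

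Within the CD45- gate, 8 of the 9 genes were tested between classes, of which 0 were called higher in endothelial wells and 4 in collagen-rich wells, namely Ctgf, Thbs1, Tgfb3 and Tgfbi. Over all 11526 genes tested, 4.31% were called higher in endothelial wells and 11.8% in collagen-rich wells. The median log2 ratio of all 9 genes, endothelial over collagen-rich and with Tgfb1 included, was -2.61 and -4.01, beside -0.16 and -0.08 over all genes tested. Tgfb1 was left out as under 1 CPM, with 0 reads in 50 endothelial wells and 2 reads in 86 collagen-rich wells.

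**Figure D3:**
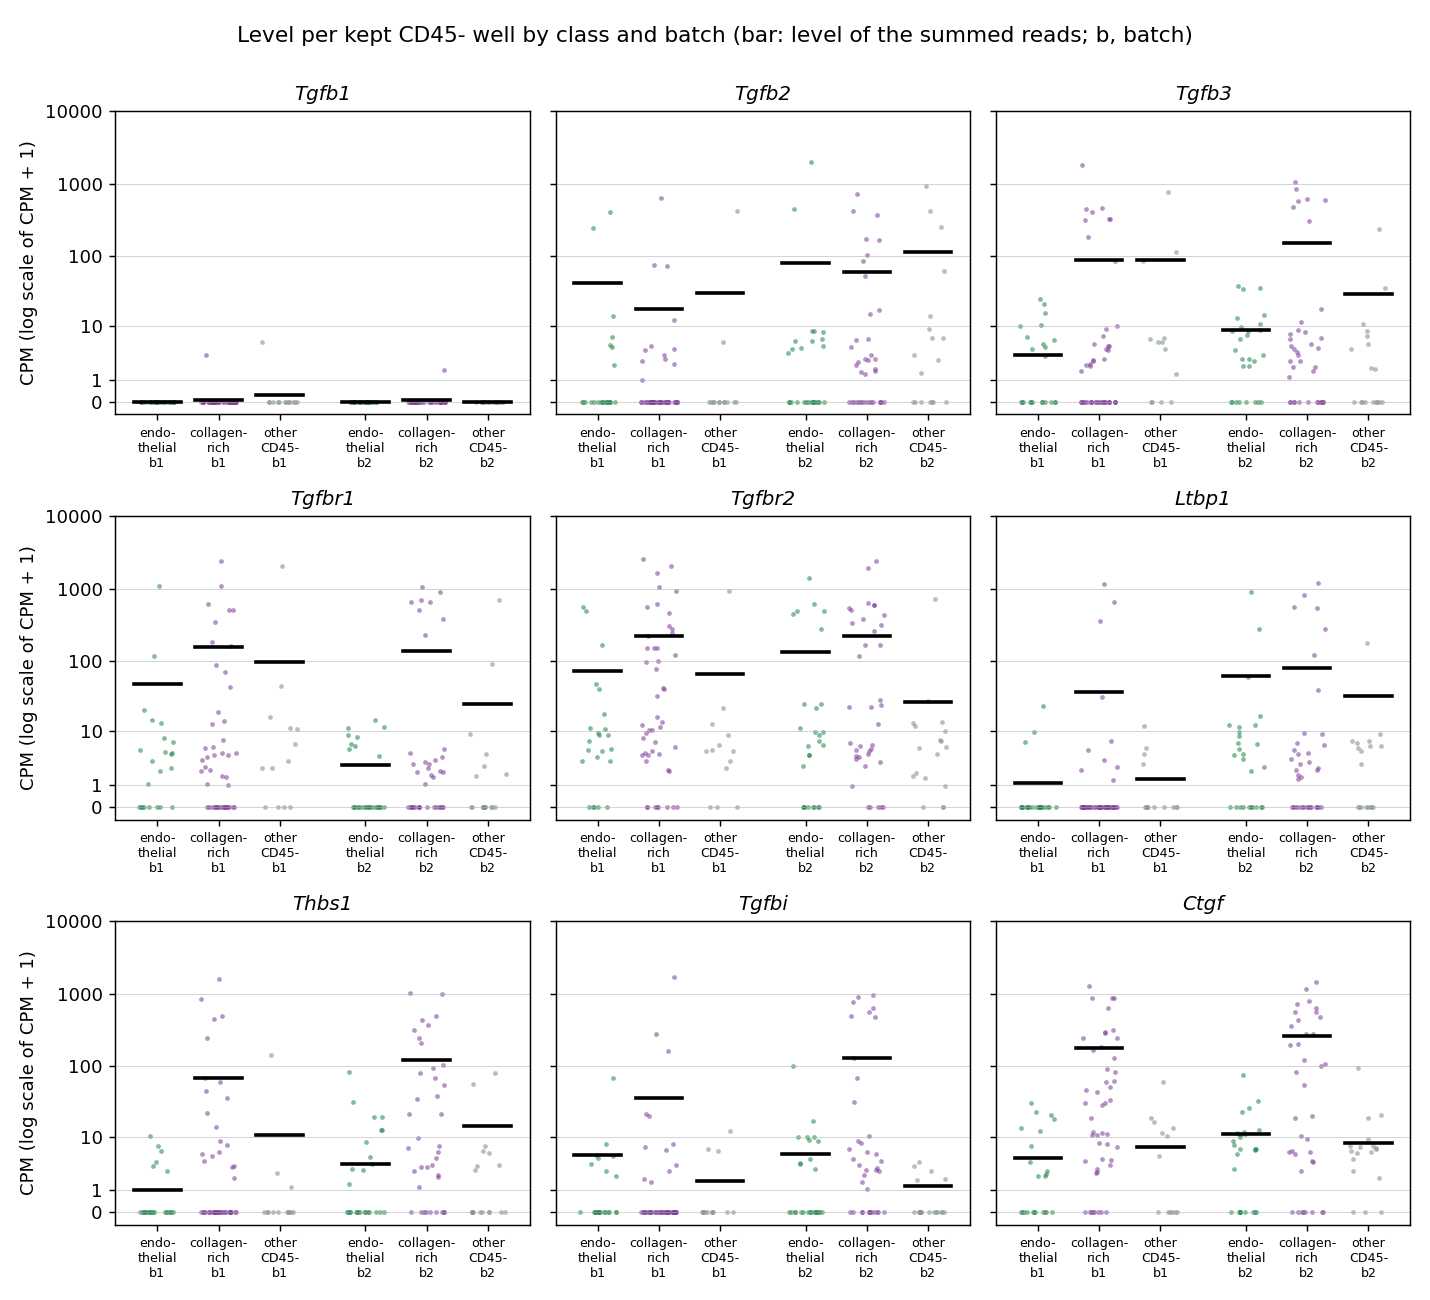
Level of each gene in every kept CD45- well, in CPM on a logarithmic scale of CPM + 1, with endothelial wells left of collagen-rich and other wells within each batch (b1, b2). Points are wells and bars are the level of the summed reads. Ctgf, Tgfb3 and Thbs1 reached 100 CPM in 0 of 50 endothelial wells, against 30, 15 and 14 of 86 collagen-rich wells, while Tgfb2 reached it in 4 and 7.

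Ctgf was read at 4.61 and 11.1 CPM in endothelial wells, against 181 and 265 CPM in collagen-rich wells, with log2 ratios of -5.02 and -4.46. Its median well held 2.18 and 6.40 CPM in the endothelial class, against 23.8 and 37.2 CPM in the collagen-rich class, and its highest wells 31.3 and 77.2 CPM, against 1281 and 1441 CPM. At 100 CPM or more it was found in 0 of 50 endothelial wells and 0 of 31 other CD45- wells. Among collagen-rich wells 30 of 86 reached that level, 34.9% with an exact interval of 24.9% to 45.9%. So did 5 of the 19 wells that passed both rules, 0 of them with at least 50000 reads. The zero among endothelial wells allows a share of up to 6%. At least 1 read was nonetheless present after thinning in 17.4% and 50% of endothelial wells, against 54.8% and 57.9% of collagen-rich wells. Col1a1 had a read in 100% of endothelial wells. Its level there was 3.04% and 2.27% of that in collagen-rich wells, which the collagen rule itself keeps low. It therefore gives no background for Ctgf, which had 2.55% and 4.18%.

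Thbs1 was read at 1.01 and 3.54 CPM in endothelial wells, against 70.1 and 122 CPM in collagen-rich wells, with log2 ratios of -5.14 and -4.76. It reached 100 CPM in 0 of 50 endothelial wells and 14 of 86 collagen-rich wells, and without collagen-rich replicate 62 the ratio of batch 1 was -4.39. Tgfb3 was read at 3.46 and 8.63 CPM in endothelial wells, against 88.7 and 154 CPM in collagen-rich wells, with log2 ratios of -4.33 and -4.01. At 100 CPM or more it was found in 0 of 50 endothelial wells and 15 of 86 collagen-rich wells. Its median well held 0 and 3.36 CPM in the endothelial class, against 0.818 and 3.65 CPM in the collagen-rich class. After thinning, Tgfb3 had a read in 3 of 23 and 7 of 26 endothelial wells. In the collagen-rich class these counts were 9 of 42 and 11 of 38. The gap in the summed level of Tgfb3 thus lay mainly in the highest collagen-rich wells. For both genes the highest endothelial well, at 84.2 CPM for Thbs1 and 37.7 CPM for Tgfb3, lay far under the highest collagen-rich wells of 1611 and 1820 CPM.

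Tgfbi, the member that leaned to the CD45+ gate, was within the CD45- gate higher in collagen-rich wells. It was read at 5.05 and 5.39 CPM in endothelial wells, against 35.8 and 132 CPM in collagen-rich wells, with log2 ratios of -2.61 and -4.38, and 1 and 11 wells reached 100 CPM. The call rests on collagen-rich replicate 58 of batch 1, the same well that held most of the CD45- reads of that batch, since the ratio was -1.09 without it. Without endothelial replicate 10 it was -3.96, and without endothelial replicate 26 of batch 2 it was -5.24. The other CD45- wells had 1.66 and 1.29 CPM and 0 of 31 wells at 100 CPM.

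The receptors leaned towards collagen-rich wells without a call. Tgfbr1 was read at 48.2 and 2.77 CPM in endothelial wells, against 157 and 138 CPM in collagen-rich wells, with log2 ratios of -1.69 and -5.21. In batch 1, 297 of the 334 endothelial reads came from replicate 91, and without it the ratio was -4.59 and Tgfbr1 would be called higher in collagen-rich wells. Without collagen-rich replicate 56 it was -1.03. It reached 100 CPM in 2 of 50 endothelial wells and 16 of 86 collagen-rich wells. Tgfbr2 was read at 73.7 and 137 CPM in endothelial wells, against 223 CPM in collagen-rich wells of each batch, with log2 ratios of -1.59 and -0.70. At 100 CPM or more it was found in 9 and 31 wells, the most endothelial wells of any member. Its median well held 7.24 and 7.20 CPM in the endothelial class, against 13.3 and 17.7 CPM in the collagen-rich class. Without endothelial replicate 54 or 10 the ratio of batch 1 was -2.27 or -2.29.

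Tgfb2 was the only member with a higher summed level in endothelial wells in both batches. Its level was 42.1 and 80.4 CPM, against 17.95 and 60.5 CPM in collagen-rich wells and 30.5 and 113 CPM in other wells, with log2 ratios, endothelial over collagen-rich, of 1.19 and 0.41. It reached 100 CPM in 4 of 50 endothelial wells, 7 of 86 collagen-rich wells and 4 of 31 other wells, so the 3 classes did not part. The order turned with single wells. Without endothelial replicate 54 the ratio of batch 1 was -0.07, and without collagen-rich replicate 21 it was 3.57. Without endothelial replicate 24 or 95 the ratio of batch 2 was -0.66 or -0.28. Ltbp1, also called higher in the CD45- gate, was read at 1.15 and 61.9 CPM in endothelial wells, against 37.6 and 80.9 CPM in collagen-rich wells, with log2 ratios of -4.16 and -0.38, so the batches did not give the same size. Without collagen-rich replicate 61 or 58 the ratio of batch 1 was -3.55 or -3.38. In batch 2 it was -1.11 without endothelial replicate 24, -1.21 without endothelial replicate 92 and 0.27 without collagen-rich replicate 83.

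Other markers differed between the classes too. Red cell markers summed to 35445 and 4026 CPM in endothelial wells, against 6195 and 2092 CPM in collagen-rich wells. Fos had 400 and 1215 CPM in endothelial wells, against 649 and 747 CPM in collagen-rich wells. Jun had 418 and 246 CPM, against 172 and 383 CPM, and Egr1 had 134 and 223 CPM, against 67.5 and 285 CPM. Atf3 had 2.74 and 232 CPM, against 0.445 and 17.7 CPM. Without endothelial replicate 24, the batch 2 levels in that class were 527 CPM for Fos, 217 for Jun, 97.6 for Egr1 and 22.2 for Atf3. Median depth was 275698 and 206802 reads in endothelial wells and 349263 and 470140 reads in collagen-rich wells. Acta2, a contractile gene of myofibroblasts and smooth muscle, had 695 and 1422 CPM in endothelial wells, against 2396 and 2804 CPM in collagen-rich wells. Without endothelial replicate 24 its batch 2 level in that class was 666 CPM. The part of these in the levels of the 9 genes was not tested.

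The distance between batches differed among the members. On the log2 scale of CPM + 1 the levels of batches 1 and 2 lay 0.50 apart for Tgfbr1, 0.36 for Tgfbi and 0.51 for Ctgf in the CD45+ gate, and 4.42 for Tgfb3. In the CD45- gate they lay 0.47 apart for Tgfbr1, 0.55 for Tgfb3 and 0.52 for Ctgf, and 1.52 for Tgfb2, 1.49 for Ltbp1 and 1.73 for Tgfbi. The median over all genes was 1.05 in the CD45+ gate and 0.897 in the CD45- gate. Of the 33 combinations of gene and plate with at least 3 reads, 7 had over 50% of their reads in a single well, and the median share of the top well was 26.4%.

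Few wells held a ligand together with both receptors. At 100 CPM or more, 112 of 182 CD45+ wells and 82 of 186 CD45- wells had none of the 9 genes, 52 and 47 had 1, and 18 and 57 had 2 or more. Of 50 endothelial wells, 36 had none and 4 had 2 or more, against 21 and 39 of 86 collagen-rich wells. Of the 19 wells that passed both rules, which were shallow, 3 had none and 10 had 2 or more. Counts of genes together at 100 CPM take in shallow wells, where 1 read can reach that level. They are not given for wells of at least 50000 reads. A ligand was present in 6 CD45+ wells and 37 CD45- wells, and a receptor in 44 and 65. Both receptors were present in 3 CD45+ wells and 10 CD45- wells, and a ligand with both receptors in 2 and 3. Ctgf met Tgfbr2 in 18 of the 35 CD45- wells that held Ctgf, 17 of them collagen-rich, while 0 CD45+ wells held Ctgf at that level. Tgfbr2 itself was at that level in 50 of 186 CD45- wells and 31 of 86 collagen-rich wells. Across CD45- wells of at least 50000 reads, the correlation of Ctgf with Tgfbr2 on the log2 scale was 0.31 in batch 1 (79 wells) and 0.39 in batch 2 (82 wells). These wells take in all classes together.

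Genes most like a member were looked for among wells of at least 50000 reads. Members and other genes entered with a read in at least 20% of the wells of a gate in both batches, which took in Tgfbr1, Tgfbr2 and Tgfbi in CD45+ wells and all members but Tgfb1 in CD45- wells. Of the 3 genes with the highest mean correlation of log2 levels for each member, those with at least 0.4 in both batches are named. Ctgf in CD45- wells was the only entered member with such genes among its 3. They were Bgn, which encodes the matrix proteoglycan biglycan, with correlations of 0.52 and 0.48, and Dcn, which encodes decorin, with 0.44 and 0.50. The other of the 3, Col1a1, had 0.58 in batch 1 and 0.38 in batch 2. All of these correlations take in every class of CD45- wells together, and Ctgf was called higher in collagen-rich wells. Within a class they were not computed for Bgn and Dcn. Within collagen-rich wells the correlation of Ctgf with Col1a1 was 0.34 (42 wells) and -0.01 (38 wells). These wells share a plate and a batch, and the correlation of Ctgf with the reads per well was 0.06 and 0.34 over the CD45- wells.

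A list of 40 other TGF-beta genes showed where the rest of the pathway was read. By gate, 2 were called higher in CD45+ wells, 11 in CD45- wells and 27 in neither, beside the 4.33% and 12.9% of all genes, with medians of -0.83 and -1.99 on the log2 scale. With TMM scaling these calls were 2 in CD45+ wells and 4 in CD45- wells, beside 5.26% and 10.4% of all genes. The CD45- calls by total reads were made up of 6 of 13 genes of latency and activation, 1 of 10 of signalling, 4 of 13 targets and 0 of 4 receptors. Ltbp4, a matrix carrier, had ratios of -6.45 and -6.72. Fbn1, whose product fibrillin-1 forms the microfibrils that carriers bind, had -7.35 and -5.09, and -6.35 in batch 2 without replicate 18. Ltbp3, which binds latent TGF-beta, had -3.84 and -5.25. The other CD45- calls by total reads were Ltbp2, Lrrc32, Mmp14, Smad7, Pmepa1, Fn1, Bhlhe40 and Id3. Of these, Ltbp2 was no longer called, at -1.36, with CD45- replicate 68 of batch 2 left out. In batch 1, Smad7 lost its call without CD45- replicate 48 or 18, at -1.09 or -1.74, and Bhlhe40 without CD45- replicate 94 or 21, at -1.93 or -1.85. Without CD45+ replicate 18, Ltbp2 had -5.90 in place of -2.22 and Mmp14 had -5.12 in place of -2.58 in batch 2. Acvr1, Acvrl1, Smad4 and Itgb1 each gained a CD45- call when 1 CD45+ well was left out.

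The CD45+ calls were Nrros and Smurf1. Nrros, which anchors latent TGF-beta on macrophages and microglia, was read at 141 and 290 CPM in the CD45+ plates, against 4.94 and 15.7 CPM in the CD45- plates, with ratios of 4.58 and 4.13, or 4.72 in batch 2 without CD45- replicate 25. Smurf1, a ubiquitin ligase that acts on the pathway, had ratios of 2.46 and 2.29 and was no longer called with CD45+ replicate 27 of batch 1 left out, at -0.83, or with CD45+ replicate 43 of batch 2 left out, at -0.52. By total reads, Ltbp1, Ltbp2, Ltbp3 and Ltbp4 were thus all called in the CD45- gate, and Nrros in the CD45+ gate. The limit given above applies to Ltbp2.

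**Figure D4:**
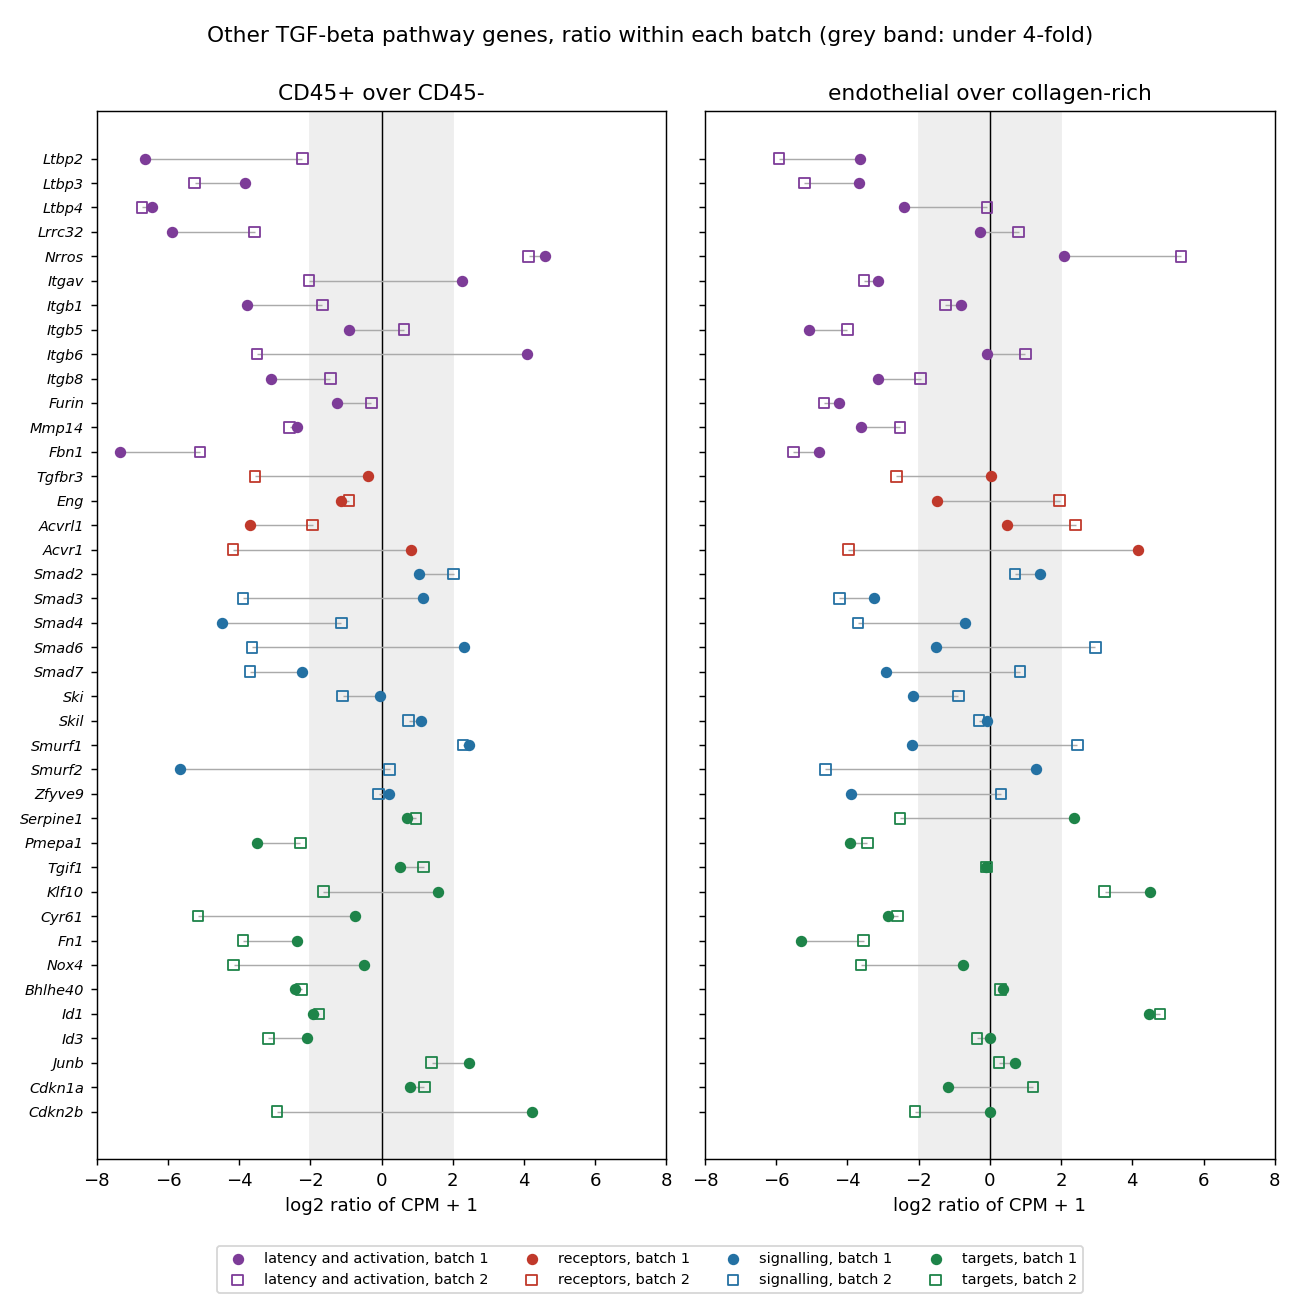
Log2 ratio of CPM + 1 for 40 other TGF-beta pathway genes within batch 1 (filled circles) and batch 2 (open squares), coloured by role, CD45+ over CD45- in the left panel and endothelial over collagen-rich wells in the right panel. The grey band marks ratios under 4-fold. Nrros lay at 4.58 and 4.13 and Ltbp4 at -6.45 and -6.72 by gate, and Id1 at 4.48 and 4.78 between the classes.

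Between the classes 39 of the 40 genes were tested, of which 3 were called higher in endothelial wells, 11 in collagen-rich wells and 25 in neither, beside the 4.31% and 11.8% of all genes. The median ratios over all 40 genes, with the untested Itgb6 included, were -0.99 and -1.07. The collagen-rich calls held 7 of 13 genes of latency and activation and 0 of 4 receptors. Fbn1 had ratios of -4.81 and -5.51. Furin, the protease that cleaves TGF-beta precursors, had -4.25 and -4.65, and Itgb5, an integrin chain that can bind latent TGF-beta, had -5.07 and -4.00. The other collagen-rich calls were Ltbp2, Ltbp3, Itgav, Mmp14, Smad3, Pmepa1, Cyr61 and Fn1. In batch 1, Itgav lost its call without collagen-rich replicate 12, at -1.65, and Smad3 without collagen-rich replicate 36, at -1.29. Smad4, Ski and Itgb8 each gained a collagen-rich call when 1 well was left out.

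The endothelial calls were Id1, Klf10 and Nrros. Id1, an inhibitor of differentiation that BMP and TGF-beta signals induce in endothelium, was read at 333 and 673 CPM in endothelial wells, against 13.95 and 23.5 CPM in collagen-rich wells, with ratios of 4.48 and 4.78. With single wells left out its ratio ran from 3.79 to 6.16 in batch 1 and from 4.04 to 5.68 in batch 2. Klf10, a TGF-beta induced transcription factor, had 4.50 and 3.22, but lost its call without endothelial replicate 54 of batch 1, at -0.47, and had 2.48 in batch 2 without endothelial replicate 3. Nrros had 2.08 and 5.37 and lost its call without endothelial replicate 5 or 69 of batch 1, at 0.56 or 1.97. Without collagen-rich replicate 58 of batch 1 it had 3.43, and without endothelial replicate 25 of batch 2 it had 4.73. Macrophage markers moved with it, with 4 and 5 of 7 at 1 CPM or more and a sum of 325 and 702 CPM in endothelial wells, against 3 and 5 of 7 and a sum of 12.2 and 171 CPM in collagen-rich wells. Leukocyte markers summed to 466 and 460 CPM in endothelial wells, with 4 and 8 of 8 at 1 CPM or more, against 44.7 and 256 CPM in collagen-rich wells, with 5 of 8 in each batch. Their part in the Nrros level was not tested.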

How the data were processed

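The 2 deposited tables, 1 for each batch, hold whole-number counts of reads that were not normalized, per the labels and from their values. Libraries were made in each well with a SMARTer kit and sequenced as pairs of reads, per the labels' protocols. STAR (given as version 3.0.4), Subread and featureCounts (version 1.4.5) are named in the submitters' processing notes; genome build, annotation, strand setting and molecular identifiers are not given in the sources used here. The authors' tables repeat 598 of 41192 lines in batch 1 and 595 of 41228 in batch 2 with identical counts, 2.39% and 2.42% of counts, which were dropped. No column lacked a sample.

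Kept wells numbered 368 of 384; the 16 left out held 5323 to 9740 reads each and 66 reads of the 9 genes. No pair of kept wells was identical. Counts were scaled to CPM by total reads, summed over wells, and compared as the log2 ratio of CPM + 1 within each batch, over genes with a mean of 1 CPM or more in the groups compared. Calls needed 4-fold in both batches. With 2 plates against 2, an exact permutation test could not go below 0.333, and the labels do not say whether plates come from different animals, so no test was made. Levels carry Poisson and shares Clopper-Pearson 95% intervals; the limit for a count of 0 is 3 counts of the total. Reads without molecular identifiers are not independent molecules, so intervals and limits cover counting error only. Doublets were not called.

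The members and the marker and pathway lists were chosen with earlier results of these data known. All 9 members are named; 3 pathway genes a direction, those with the largest smaller ratio, are described, and every pathway gene called is listed. Python 3.11.15, numpy 2.4.6, pandas 2.3.3 and scipy 1.17.1 were used, with edgeR 4.0.16 (TMM) and DESeq2 1.42.0 (median of ratios) in R 4.3.3 for scaling factors only. The code of the call rule was run on simulated plate counts with known folds. Gene symbols came from the deposited tables, and 40254 identifiers matched the reference name table.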

Additional observations from a re-analysis of the deposited data

How the results depend on the processing

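No paired analysis was possible because the results come from no test and well numbers, given in the order of the samples, pair no wells; plates were paired by batch in every ratio. Ctgf kept its CD45- call under all 13 alternatives by gate, and Ctgf, Thbs1 and Tgfb3 their collagen-rich calls under all 15 by class. Tgfb2 and Ltbp1 lost their CD45- calls with a pseudocount of 10 CPM alone. Tgfbi lost its collagen-rich call at 8-fold, at a collagen limit of 10000 CPM and with a pseudocount of 10 CPM. Scaling by TMM or median of ratios put the median log2 ratio of all genes by gate at -0.10 or -0.09 in batch 1 and -0.10 or -0.07 in batch 2, in place of -0.39 and -0.56. Under either scaling 1 of the 9 genes, Tgfbi, was called in CD45+, in place of 0, and 4 pathway genes in CD45-, in place of 11. Over all genes tested, 5.26% or 5.35% were then called in CD45+ and 10.4% or 10.3% in CD45-. At 2-fold, members called were 1 in CD45+ and 5 in CD45-, and pathway genes in CD45+ were 4. The shares of all genes tested at 2-fold were 7.41% in CD45+ and 22.1% in CD45-. A pseudocount of 10 CPM left 1 pathway gene called in CD45+, and 1 member and 7 pathway genes in CD45-. Its shares over all genes tested were 1.94% and 2.83%. At 8-fold, 1 pathway gene was called in CD45+ and 4 in CD45-, beside 2.87% and 6.90% of all genes tested. The mean of CPM over wells, and leaving out each gene's top well, each left 1 pathway gene in CD45+, in place of 2. Leaving out the top well left 1 in endothelial wells, in place of 3. Over all genes tested, 4.29% and 4.28% were called in CD45+ under these choices. Without the top well, 3.53% were called in endothelial wells. With each well left out in turn, a choice made after seeing the data, the pathway count in CD45+ ran from 1 to 2, in CD45- from 10 to 12, in endothelial wells from 2 to 3 and in collagen-rich wells from 10 to 12. The count of members ran from 3 to 4 in CD45- and from 3 to 5 in collagen-rich wells. Shares over all genes were not computed with single wells left out. With all kept wells they were 4.33% in CD45+, 12.9% in CD45-, 4.31% in endothelial and 11.8% in collagen-rich wells. For genes near 0 reads, the ratio depends on the CPM added, and the cause of the other changes was not tested.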
